A study of Mus musculus with 6 samples.

Results

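The genes described here are 35 genes of glucose uptake, glycolysis, lactate export, pyruvate dehydrogenase control and the hypoxia-inducible factor (HIF), taken by name from the 16840 genes of the deposited count table. All 35 were listed in the table, and 34 of them entered the test. Egln3, a prolyl hydroxylase that marks HIF-1α for destruction, was left out by the filter on low counts, with 0 and 0 reads in GM-CSF with DON, 0 and 2 in GM-CSF and 0 and 1 without GM-CSF. The genes are listed by function. RNA from cultured mouse alveolar macrophages, labelled wild type and given the cell line name AM, was sequenced on day 2 in 3 groups of 2 libraries. The groups were GM-CSF stimulation with DON treatment, GM-CSF stimulation alone (named Ctrl in the sample titles) and no GM-CSF stimulation. GM-CSF is the cytokine that alveolar macrophages need to develop and to keep their identity, and DON is given in the labels by its abbreviation only. The labels do not say whether the 2 libraries of a group came from separate cultures or animals, so the p-values below measure only the spread between these libraries, which may be technical.

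Glucose enters the cell through facilitative transporters, is trapped by hexokinase and is split by the glycolytic enzymes into pyruvate. Pyruvate is then either reduced to lactate, which leaves through monocarboxylate transporters, or oxidised to acetyl-CoA by pyruvate dehydrogenase, which PDH kinases switch off and PDH phosphatases switch on. HIF-1α, held low in normoxia by prolyl hydroxylation, is a classical activator of glucose transporter, glycolytic, lactate and Pdk1 transcription in hypoxic and in inflammatory macrophages. Resident alveolar macrophages live in glucose-poor airway fluid and are known for low glycolytic activity.

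Libraries held 28321986 to 35196387 gene-assigned reads, and 14892 to 15188 genes had at least 1 read. Markers of alveolar macrophages were all present, with a sum over 15 genes of 21490 and 21360 CPM (reads of a gene per fixed number of reads in the library) in GM-CSF with DON, 18130 and 17960 in GM-CSF, and 14380 and 13780 without GM-CSF. Chi3l3 alone gave 7761 and 7643 CPM, 5536 and 5551 CPM, and 1809 and 1819 CPM of these sums, in the same order of groups. Of the 15 genes, 4 were higher and 7 lower in GM-CSF than without, and 9 were higher and 4 lower with DON than in GM-CSF. The called shares (calls are defined below) were 73.3% and 86.7%, against 56.8% and 57.6% of all genes tested. The general macrophage list of 8 genes, dominated by Lyz2, summed to 22950 and 21390 CPM in GM-CSF with DON, 19820 and 19720 CPM in GM-CSF and 41620 and 41280 CPM without GM-CSF. Among the alveolar markers, Car4 stood at 325 and 303 CPM in GM-CSF with DON, 661 and 652 CPM in GM-CSF and only 0.215 and 0.238 CPM without GM-CSF. Fabp4 and Fabp5 were among the 7 lower in GM-CSF than without, with log2 fold changes of -1.14 and -0.69. Of 12 lung epithelial markers in the table, 8 were below 1 CPM on average, Sftpc, Sftpb and Sftpd among them, and the list's sum of 115 to 118 CPM in GM-CSF with DON, 172 to 178 CPM in GM-CSF and 108 to 121 CPM without GM-CSF was mostly Cdh1 and Abca3. Lymphocyte markers summed to 181 to 200 CPM in all 6 libraries, nearly all of it Cd2, and stromal and endothelial markers to 95.8 to 274 CPM, nearly all of it Vwf. Of 12 granulocyte and mast cell markers, only 4 were in the table, and their sum hid opposite differences. The sum was 71.5 and 74.0 CPM in GM-CSF with DON, 61.3 and 63.4 CPM in GM-CSF and 111 and 115 CPM without GM-CSF. For GM-CSF over no GM-CSF, the log2 fold changes were -4.53 for Cxcr2, -4.76 for Csf3r, -2.03 for S100a8 and 1.39 for Mmp8. For DON over GM-CSF, they were 1.69 for Cxcr2, 0.76 for Csf3r, -0.26 for S100a8 and 0.12 for Mmp8. The part of these genes in the results below was not tested.

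The listed genes together took 0.881% and 0.843% of all counts in GM-CSF with DON, 1.01% and 1.04% in GM-CSF and 0.768% and 0.802% without GM-CSF. The share was highest in both GM-CSF libraries and lowest in both libraries without GM-CSF. In these bulk samples, fewer cells of a kind and less RNA per cell cannot be told apart. A gene is called higher or lower below where edgeR's quasi-likelihood test over all 12340 tested genes gave a Benjamini-Hochberg adjusted p under 0.05. With DON, 7 of the 34 tested genes were higher and 17 lower than in GM-CSF alone, which is 70.6% called against 57.6% of all genes tested (28.8% higher and 28.8% lower). The median log2 fold change of the 34 was -0.17 with DON, against 0.01 for all genes tested. GM-CSF against no GM-CSF gave 11 higher and 13 lower, again 70.6%, against 56.8% of all genes (27.5% higher and 29.3% lower), with a median of -0.04 against -0.02. The DON group set against cells without GM-CSF gave 8 higher and 13 lower, 61.8% against 55.6% of all genes (27.2% higher and 28.4% lower). A majority of all expressed genes passed the test in each comparison, so a call alone is a weak distinction, and the size of each difference is given with it. At least 2-fold differences among the calls numbered 2 of the 34 with DON against GM-CSF (9.37% of all genes), 7 with GM-CSF against no GM-CSF (11.7%) and 8 with DON against no GM-CSF (11.6%). The 3 comparisons share libraries, so their values are set side by side and are not independent. When libraries were scaled by total counts alone, the median of all genes moved to 0.11 for the DON group and 0.10 for GM-CSF, each over no GM-CSF, and 61.6% and 63% of all calls were then higher instead of 48.9% and 48.4%.

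**Figure D1:**
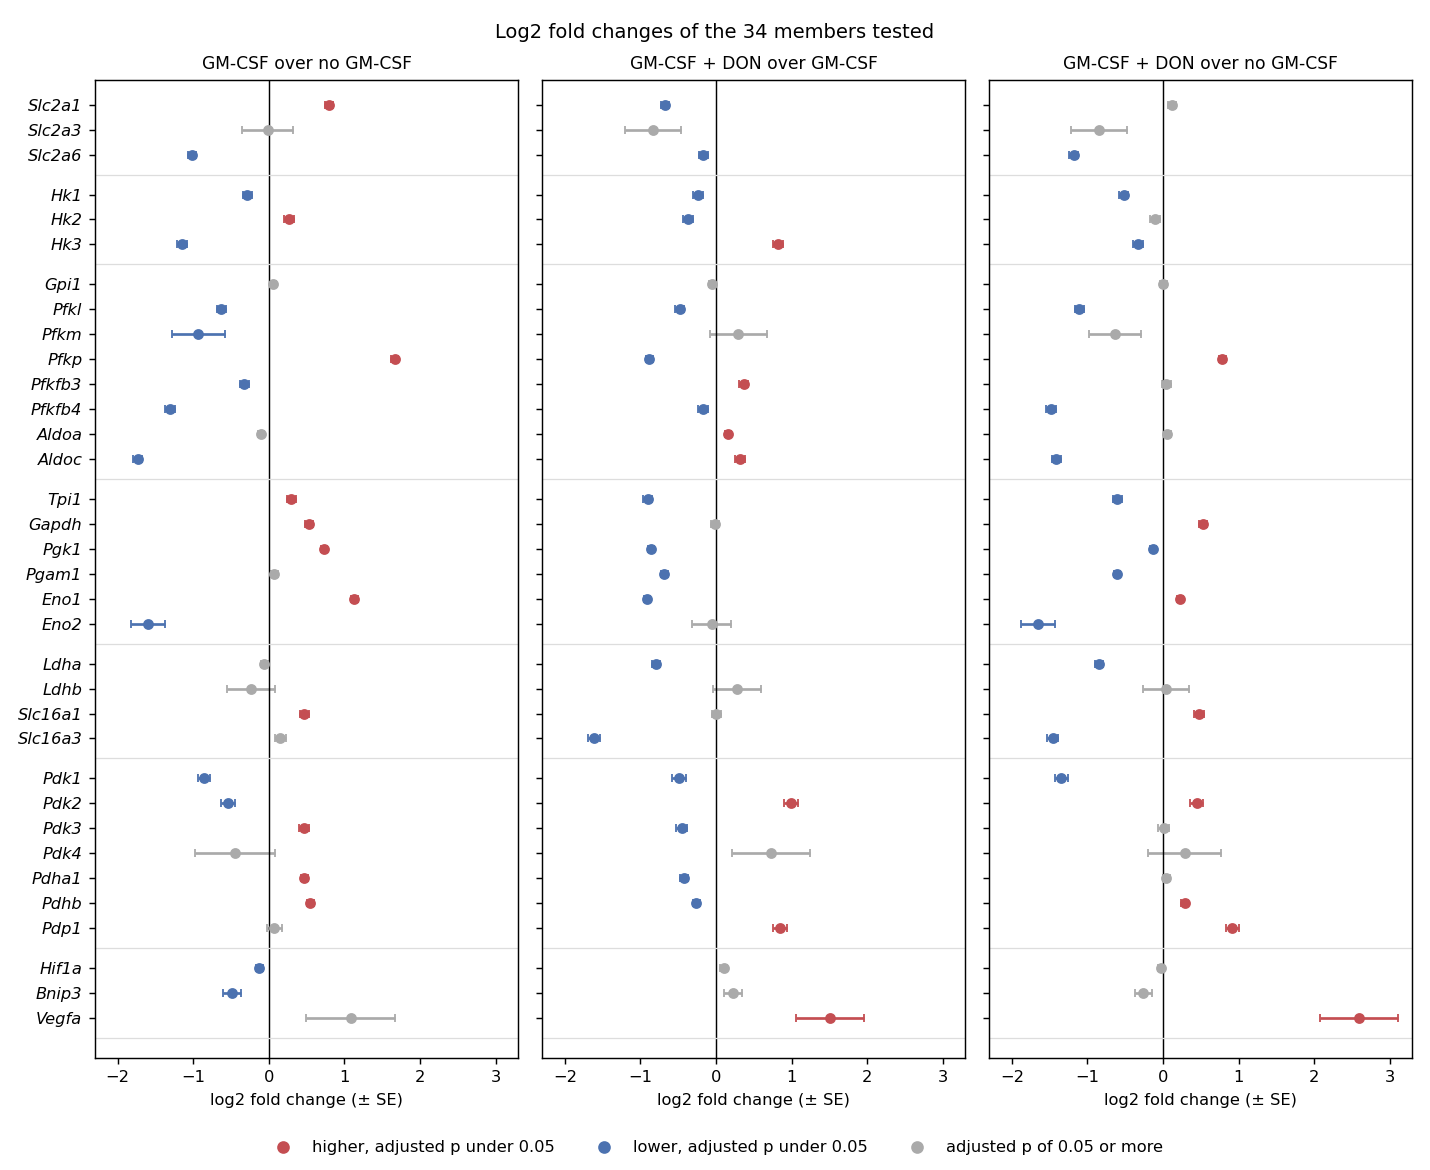
Log2 fold changes (points) with standard errors (bars) of the 34 tested genes, in the order transporters, hexokinases, upper glycolysis, lower glycolysis, lactate, pyruvate dehydrogenase and HIF, for GM-CSF over no GM-CSF, GM-CSF with DON over GM-CSF, and GM-CSF with DON over no GM-CSF. Red and blue points passed an adjusted p of 0.05 and grey points did not. Pfkp has the highest value of the left panel at 1.66, and Slc16a3 the lowest of the middle panel at -1.62.

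Glucose transporters differed by isoform. Slc2a1, which encodes GLUT1, the widespread basal glucose transporter (GRCm38 chr4:119108711-119137983, plus strand), had 62.0 and 59.9 CPM in GM-CSF with DON, 94.3 and 100.2 CPM in GM-CSF and 56.2 and 55.9 CPM without GM-CSF. The 2 GM-CSF libraries stood above the other 4, which lay close together. The log2 fold change was 0.79 ± 0.05 (SE, n = 2 libraries a group) for GM-CSF over no GM-CSF (edgeR adjusted p = 6.59e-07) and -0.67 ± 0.05 for DON over GM-CSF (adjusted p = 2.94e-06), while DON over no GM-CSF did not pass at 0.12 ± 0.05 (adjusted p = 0.0755), except with scaling by total counts (0.22, adjusted p = 0.00514). Slc2a6, which encodes GLUT6, a transporter of intracellular membranes known from inflammatory macrophages, ordered the groups otherwise. It had 40.4 and 43.4 CPM in GM-CSF with DON, 47.7 and 46.3 CPM in GM-CSF and 93.5 and 97.0 CPM without GM-CSF. Both libraries without GM-CSF stood far above the other 4, with -1.02 ± 0.05 for GM-CSF over no GM-CSF (edgeR adjusted p = 1.81e-07). Its lower value with DON, -0.17 ± 0.06 (edgeR adjusted p = 0.0293), was lost without GM-CSF replicate 1 (adjusted p = 0.135), GM-CSF replicate 2 (0.0624) or DON replicate 1 (0.172). Slc2a3, which encodes the high-affinity transporter GLUT3, was at low counts and passed no test with all libraries, although leaving out DON replicate 2 called it lower with DON than in both other groups (-1.47 and -1.49, edgeR adjusted p = 0.0247 in both). Per length, in the authors' FPKM (fragment counts scaled by transcript length and library size), the signals of Slc2a1, Slc2a3 and Slc2a6 were summed. Slc2a1 made up 53.8% ± 1.90 (SD, n = 2) of this sum in GM-CSF with DON, 62.2% ± 1.87 in GM-CSF and 32.4% ± 0.384 without GM-CSF, nearly all of the rest being Slc2a6. Other transporters were outside the sum, such as Slc2a8 at 12.4 FPKM in GM-CSF with DON, 7.07 in GM-CSF and 8.41 without GM-CSF. Within this sum, Slc2a1 was the larger part in all 4 GM-CSF libraries and Slc2a6 in both libraries without it.

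All 3 hexokinase genes were called in both the GM-CSF and the DON comparison, in different directions. These comparisons called 56.8% and 57.6% of all genes tested, so calls for all 3 are a weak distinction. Hk3, the hexokinase of myeloid cells (chr13:55005985-55021385, minus strand), had 195 and 192 CPM in GM-CSF with DON, 101 and 118 CPM in GM-CSF and 243 and 242 CPM without GM-CSF. The groups did not overlap, and GM-CSF alone was the lowest. GM-CSF over no GM-CSF was -1.15 ± 0.07 (edgeR adjusted p = 2.76e-07), and DON over GM-CSF was 0.82 ± 0.07 (adjusted p = 4.1e-06). Hk2, the inducible isoform that sits on mitochondria and is a textbook HIF target, had 60.9 and 66.0 CPM in GM-CSF with DON, 79.96 and 83.9 CPM in GM-CSF and 72.2 and 64.1 CPM without GM-CSF. It was lower with DON than in GM-CSF (-0.37 ± 0.07, edgeR adjusted p = 0.00102). Its higher level in GM-CSF than without, 0.26 ± 0.07 (edgeR adjusted p = 0.00685), did not pass without GM-CSF replicate 2 (adjusted p = 0.0583). DON over no GM-CSF did not pass for Hk2 (-0.10 ± 0.07, edgeR adjusted p = 0.229), except without no GM-CSF replicate 2 (-0.19, adjusted p = 0.0407). Hk1, the constitutive isoform, was lower with DON than in GM-CSF (-0.24 ± 0.06, edgeR adjusted p = 0.0091) and lower in GM-CSF than without (-0.28 ± 0.06, adjusted p = 0.00263; -0.16 and 0.0423 with scaling by total counts). In FPKM, Hk3 was the main hexokinase everywhere, at 79.1% ± 1.16 of the family in GM-CSF with DON, 63.4% ± 2.22 in GM-CSF and 80.2% ± 1.05 without GM-CSF. Hk2 held 14.2% ± 1.11, 25.7% ± 1.39 and 12.2% ± 1.04 in the same order of groups. The summed hexokinase FPKM was 83.5 ± 1.86 in GM-CSF with DON, 60.3 ± 5.28 in GM-CSF and 106 ± 0.674 without GM-CSF. Because Hk3 makes up most of this sum, a lower Hk3 level both lowers the sum and raises the Hk2 share. Hk2 itself was also highest in GM-CSF, at 15.5 FPKM, against 11.9 with DON and 12.8 without GM-CSF, so both genes enter its share.

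**Figure D2:**
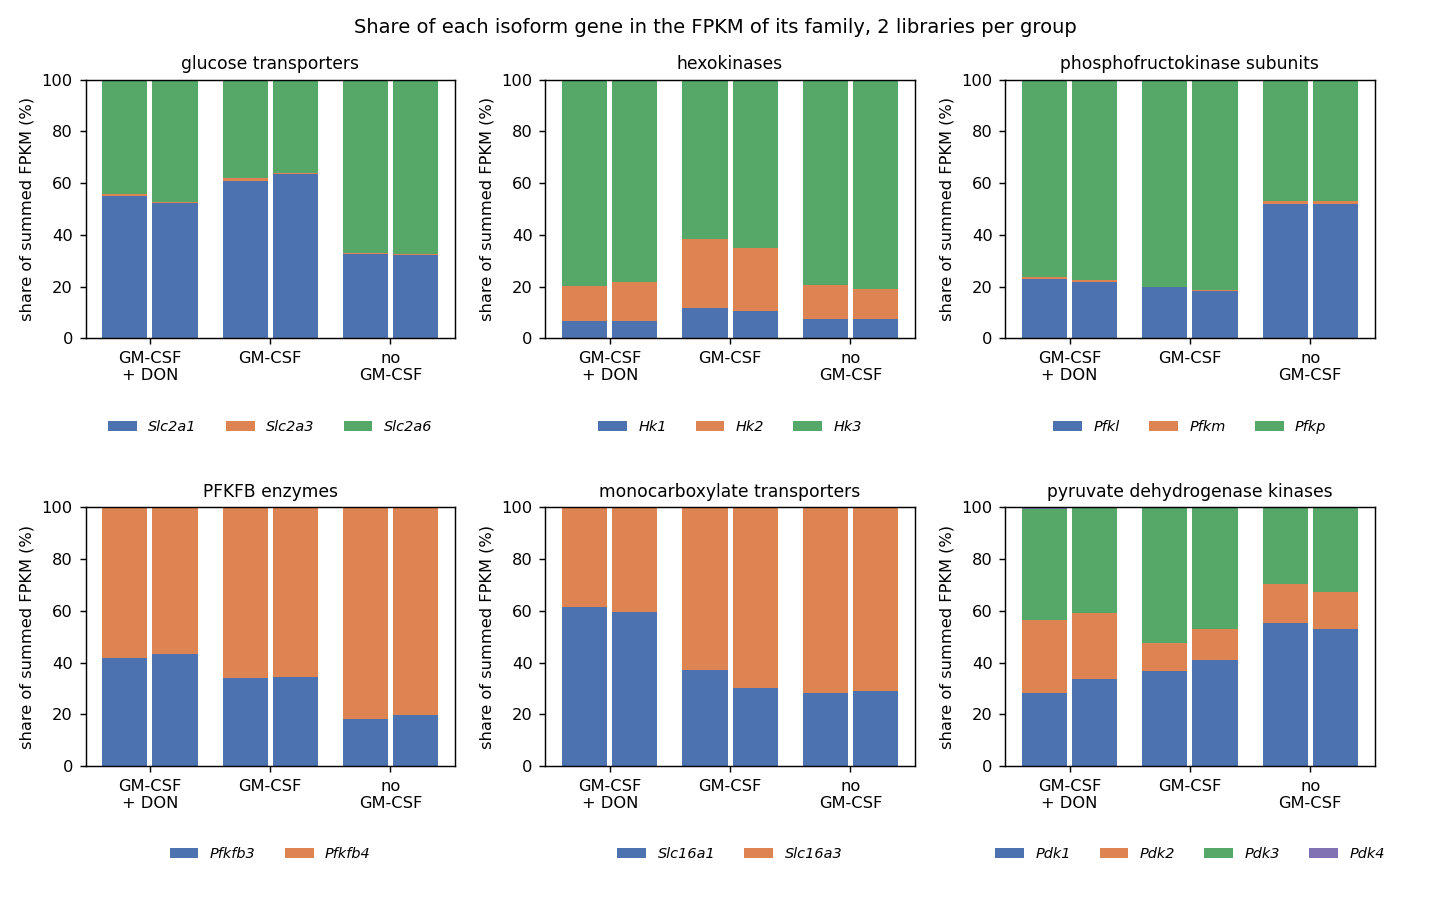
Share of each isoform gene in the summed FPKM of the listed genes of its family (vertical axis, percent). Each library has a bar, with GM-CSF with DON at the left, GM-CSF in the middle and no GM-CSF at the right of each panel. Slc2a1 goes with both GM-CSF groups, Pfkl fills over 50% of the phosphofructokinase bars in the libraries without GM-CSF, and Slc16a1 exceeds 50% with DON.

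Of the 8 genes between glucose 6-phosphate and the aldolase step, 3 were higher and 3 lower with DON than in GM-CSF, and 1 was higher and 5 lower in GM-CSF than without. That is 75% called in each comparison, against 57.6% and 56.8% of all genes tested. Phosphofructokinase, the committed step, is a tetramer of liver, muscle and platelet type subunits. Pfkp, the platelet type (chr13:6579768-6648777, minus strand), had 114 and 118 CPM in GM-CSF with DON, 209 and 217 CPM in GM-CSF and 67.3 and 67.1 CPM without GM-CSF. DON over GM-CSF was -0.88 ± 0.05 (edgeR adjusted p = 2.83e-07), and with DON the gene was still 0.78 ± 0.05 above no GM-CSF (adjusted p = 4.01e-07). Pfkl, the liver type, was highest without GM-CSF, with 36.1 and 40.5 CPM in GM-CSF with DON, 53.6 and 53.1 CPM in GM-CSF and 82.7 and 82.7 CPM without GM-CSF. Both steps passed, at -0.48 ± 0.06 for DON over GM-CSF (edgeR adjusted p = 0.000101) and -0.63 ± 0.06 for GM-CSF over no GM-CSF (adjusted p = 9.71e-06). As shares of the family FPKM, Pfkp held 76.9% ± 0.625 in GM-CSF with DON, 80.7% ± 0.910 in GM-CSF and 46.9% ± 0.164 without GM-CSF. The platelet type was thus the larger part in the 4 libraries with GM-CSF and the liver type, at 52.0% ± 0.0488, in the 2 without. The FPKM of the family summed to 52.4 with DON, 91.5 in GM-CSF and 48.9 without GM-CSF. Pfkm, the muscle type, was at 0.6 to 1.6 CPM, and its lower value in GM-CSF than without (-0.93 ± 0.35, edgeR adjusted p = 0.0449) was lost without any one of the 4 libraries compared (adjusted p 0.0657 to 0.2), in DESeq2 (0.112) and with the replicate number as a block (-0.92, adjusted p = 0.062).

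The PFKFB enzymes set the level of fructose 2,6-bisphosphate, the strongest activator of phosphofructokinase. Pfkfb4 had 40.7 and 43.5 CPM in GM-CSF with DON, 45.0 and 50.2 CPM in GM-CSF and 120.0 and 116 CPM without GM-CSF. Both libraries without GM-CSF stood far above the other 4 (-1.49 ± 0.06 for DON over no GM-CSF, edgeR adjusted p = 3.39e-08), and the small difference between DON and GM-CSF (-0.18 ± 0.07, adjusted p = 0.0405) shrank to -0.10 without GM-CSF replicate 2 (adjusted p = 0.278) and did not pass without DON replicate 1 (0.207) or DON replicate 2 (0.0533), nor in limma-voom (0.0516). Pfkfb3, whose kinase activity outweighs its phosphatase activity, was lowest in GM-CSF, with 47.8 and 52.5 CPM in GM-CSF with DON, 38.8 and 39.0 CPM in GM-CSF and 47.7 and 49.9 CPM without GM-CSF. It passed for DON over GM-CSF at 0.37 ± 0.06 (edgeR adjusted p = 0.000524) and for GM-CSF over no GM-CSF at -0.33 ± 0.06 (adjusted p = 0.00112). The second of these values shrank to -0.21 with scaling by total counts (edgeR adjusted p = 0.0192) and was not called by limma on log2(FPKM + 1) (-0.24, adjusted p = 0.0541). Pfkfb4 was the larger of the pair in FPKM in all groups, at 57.4% with DON, 65.8% in GM-CSF and 81.1% without GM-CSF. Aldoc, the brain-type aldolase, had 66.8 and 59.2 CPM in GM-CSF with DON, 51.2 and 49.5 CPM in GM-CSF and 171 and 164 CPM without GM-CSF. GM-CSF over no GM-CSF was -1.73 ± 0.06 (edgeR adjusted p = 1.04e-08), the lowest log2 value of the 34 genes in that comparison, and DON over GM-CSF was 0.32 ± 0.06 (adjusted p = 0.0016). Aldoa, the main aldolase, held over 90% of the aldolase FPKM throughout (96.9% with DON, 97.2% in GM-CSF and 91.8% without GM-CSF) and was 0.16 ± 0.04 higher with DON than in GM-CSF (edgeR adjusted p = 0.00955), which did not pass without DON replicate 1 (0.10, adjusted p = 0.074). Its difference between GM-CSF and no GM-CSF (-0.10 ± 0.04, edgeR adjusted p = 0.0644) passed when DON replicate 1 (0.0272) or DON replicate 2 (0.0248) was left out of the fit, and DON over no GM-CSF (0.06, adjusted p = 0.295) passed without DON replicate 2 (0.12, adjusted p = 0.0413) and with scaling by total counts (0.15, adjusted p = 0.00695). Gpi1, which interconverts glucose and fructose 6-phosphate, was at 427 to 455 CPM in all 6 libraries and passed no test with TMM scaling. With scaling by total counts it was called higher in GM-CSF (0.17, edgeR adjusted p = 0.0031) and with DON (0.10, adjusted p = 0.0457) than without GM-CSF.

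**Figure D3:**
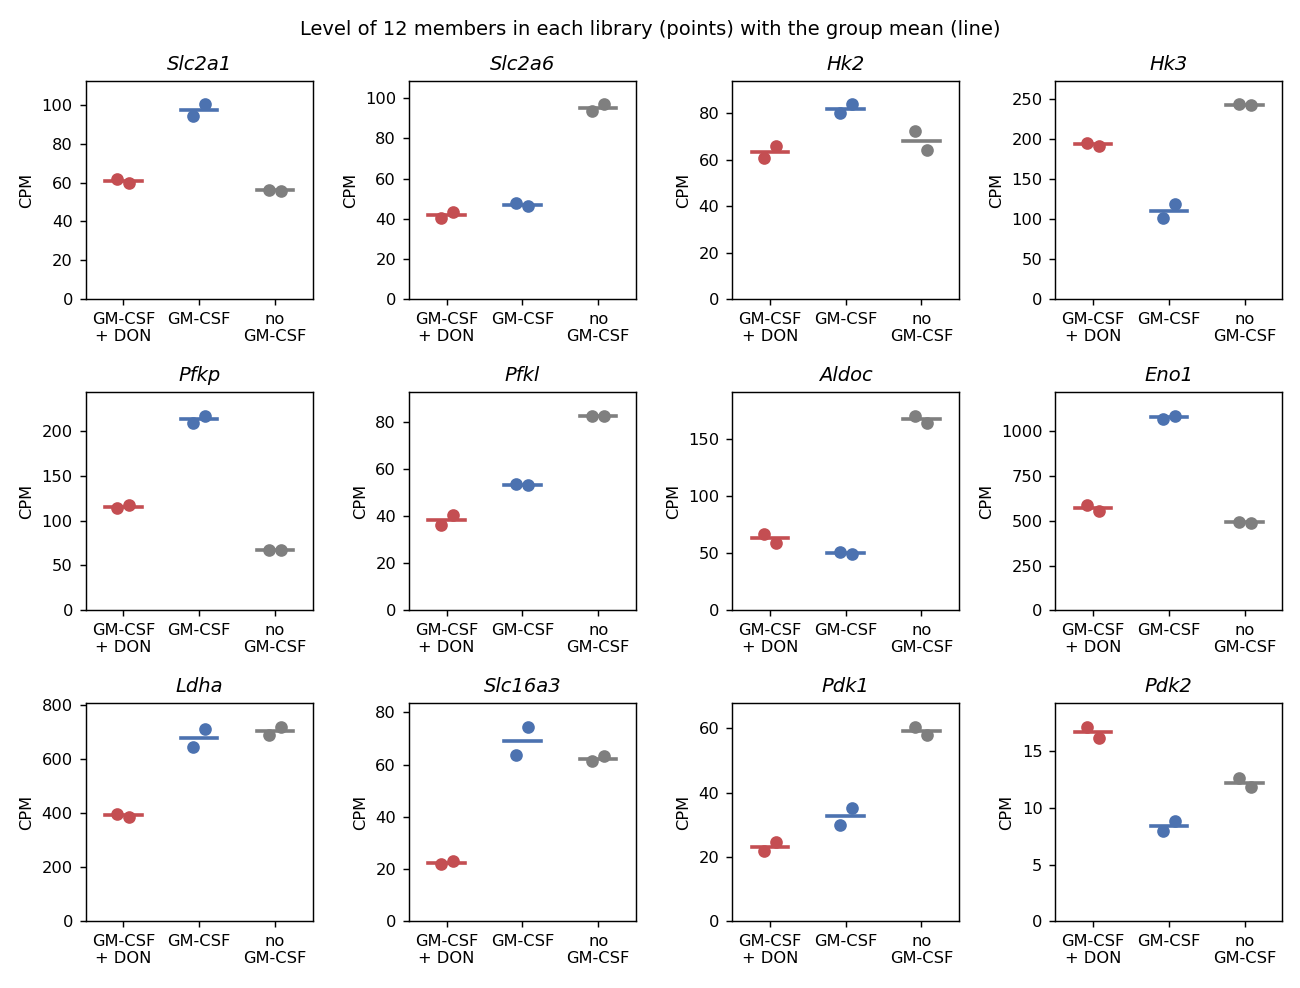
CPM (vertical axes, each from 0) of 12 genes in the 6 libraries, with points for libraries and lines for group means, GM-CSF with DON at the left, GM-CSF in the middle and no GM-CSF at the right. Slc2a1, Hk2, Pfkp and Eno1 peak in GM-CSF, Slc2a6, Hk3, Pfkl, Aldoc and Pdk1 are highest without GM-CSF, Ldha and Slc16a3 are low only in the 2 libraries with DON, and Pdk2 is highest there.

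In lower glycolysis, from triose phosphate to phosphoenolpyruvate, 4 of 6 genes were lower with DON than in GM-CSF and none higher, and 4 were higher and 1 lower in GM-CSF than without. The called shares were 66.7% and 83.3%, against 57.6% and 56.8% of all genes tested. Eno1, the ubiquitous enolase (chr4:150236721-150248879, plus strand), had 591 and 555 CPM in GM-CSF with DON, 1067 and 1088 CPM in GM-CSF and 494 and 489 CPM without GM-CSF. DON over GM-CSF was -0.91 ± 0.04 (edgeR adjusted p = 1.27e-07), with 0.22 ± 0.04 remaining over no GM-CSF (adjusted p = 0.00112). Pgk1, the first ATP-producing enzyme of the pathway, had 198 and 195 CPM in GM-CSF with DON, 354 and 360 CPM in GM-CSF and 212 and 218 CPM without GM-CSF. The 4 libraries outside the GM-CSF group lay close together, between 195 and 218 CPM. DON over GM-CSF was -0.86 ± 0.04 (edgeR adjusted p = 1.5e-07), and DON over no GM-CSF was -0.13 ± 0.04 (adjusted p = 0.0202), a call lost without DON replicate 1 (0.0554), DON replicate 2 (0.0846) or no GM-CSF replicate 2 (0.111), and reduced to -0.03 with scaling by total counts (adjusted p = 0.529). Tpi1, which interconverts the triose phosphates, fell below both other groups with DON, at 143 and 130 CPM, against 246 and 265 CPM in GM-CSF and 204 and 212 CPM without GM-CSF. DON over GM-CSF was -0.90 ± 0.06 (edgeR adjusted p = 9.29e-07) and DON over no GM-CSF was -0.61 ± 0.06 (adjusted p = 1.08e-05). Pgam1, the phosphoglycerate mutase, behaved likewise, with 532 and 525 CPM in GM-CSF with DON, 819 and 874 CPM in GM-CSF and 796 and 812 CPM without GM-CSF. GM-CSF over no GM-CSF did not pass (0.07, edgeR adjusted p = 0.153; 0.12 and 0.048 without GM-CSF replicate 1, and 0.19 and 0.00228 with scaling by total counts), while DON was -0.68 ± 0.04 below GM-CSF (adjusted p = 7.26e-07). Gapdh differed from its neighbours in the pathway, with 3643 and 3339 CPM in GM-CSF with DON, 3473 and 3548 CPM in GM-CSF and 2299 and 2552 CPM without GM-CSF. DON over GM-CSF was -0.01 ± 0.05 (edgeR adjusted p = 0.912), although GM-CSF over no GM-CSF was 0.53 ± 0.05 (adjusted p = 1.89e-05). Eno2, the neuronal enolase, reached only 1.23 to 4.84 CPM and was lower in GM-CSF than without (-1.60 ± 0.23, edgeR adjusted p = 0.000176), a value that shrank to -0.56 and -0.88 in limma fits on FPKM with 1 and 0.1 added.

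Of the 4 lactate genes, Ldha and Slc16a3 were lower with DON than in both other groups. That is 50% called for DON over GM-CSF, against 57.6% of all genes tested. For DON over no GM-CSF, 75% were called, with Slc16a1 higher, against 55.6% of all genes tested. Ldha, the lactate dehydrogenase subunit that favours lactate production, had 397 and 387 CPM in GM-CSF with DON, 644 and 710 CPM in GM-CSF and 690 and 720 CPM without GM-CSF. DON over GM-CSF was -0.79 ± 0.05 (edgeR adjusted p = 9.83e-07), and GM-CSF over no GM-CSF was -0.06 ± 0.05 (adjusted p = 0.354). Slc16a3, which encodes MCT4, the lactate exporter of glycolytic cells (chr11:120948480-120960868, plus strand), had 21.9 and 23.2 CPM in GM-CSF with DON, 63.8 and 74.5 CPM in GM-CSF and 61.2 and 63.1 CPM without GM-CSF. Its log2 value of -1.62 ± 0.08 for DON over GM-CSF (edgeR adjusted p = 1.92e-07) was the lowest of the 34 genes in that comparison, and DON over no GM-CSF was -1.46 ± 0.08 (adjusted p = 1.83e-07). GM-CSF over no GM-CSF did not pass (0.15 ± 0.07, edgeR adjusted p = 0.0982), except without GM-CSF replicate 1 (0.26, adjusted p = 0.0135) and with scaling by total counts (0.27, adjusted p = 0.00938). Slc16a1, which encodes MCT1, a transporter that moves lactate and pyruvate either way, had 76.0 and 76.4 CPM in GM-CSF with DON, 80.1 and 71.6 CPM in GM-CSF and 53.8 and 55.9 CPM without GM-CSF. The 2 groups with GM-CSF overlapped (0.01 ± 0.06, edgeR adjusted p = 0.939), and GM-CSF was 0.47 ± 0.06 above no GM-CSF (adjusted p = 0.000101). By FPKM the pair changed places with DON, where Slc16a1 held 60.7% ± 1.35 of their sum, against 33.6% ± 4.83 in GM-CSF and 28.7% ± 0.620 without GM-CSF. With 2 libraries a side, an exact two-sided permutation test of such a share cannot go below p = 0.333, so the shares are given as descriptions. Ldhb, the heart-type subunit, was under 1 CPM in every library and passed no test.

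Promoters are shown for 5 of the genes that were lower with DON, to show how ACGTG, a form of the HIF-binding core, reads in sequence. They were picked by hand. Another form of the core, GCGTG, was not searched. Each sequence is the 250 bases before a RefSeq start in GRCm38.p6, 5′ to 3′ on the gene's strand, with ACGTG and its reverse complement CACGT in capitals; CACGTG is an overlapping pair of both and is also the E-box of MYC. The windows are Slc2a1 at chr4:119108495-119108744 (plus), Pgk1 at chrX:106186850-106187099 (plus), Tpi1 at chr6:124814159-124814408 (minus), Ldha at chr7:46845554-46845803 (plus, the first of 2 starts) and Slc16a3 at chr11:120948817-120949066 (plus).
Slc2a1: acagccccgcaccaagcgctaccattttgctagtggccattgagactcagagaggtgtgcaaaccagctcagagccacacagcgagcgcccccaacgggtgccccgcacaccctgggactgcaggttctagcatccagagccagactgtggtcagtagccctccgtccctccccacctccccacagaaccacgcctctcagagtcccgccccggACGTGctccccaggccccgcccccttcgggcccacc
Pgk1: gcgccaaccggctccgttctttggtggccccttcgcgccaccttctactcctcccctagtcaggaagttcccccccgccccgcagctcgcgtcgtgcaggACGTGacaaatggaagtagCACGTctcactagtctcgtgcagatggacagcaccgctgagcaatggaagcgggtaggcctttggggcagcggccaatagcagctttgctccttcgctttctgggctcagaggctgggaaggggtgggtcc
Tpi1: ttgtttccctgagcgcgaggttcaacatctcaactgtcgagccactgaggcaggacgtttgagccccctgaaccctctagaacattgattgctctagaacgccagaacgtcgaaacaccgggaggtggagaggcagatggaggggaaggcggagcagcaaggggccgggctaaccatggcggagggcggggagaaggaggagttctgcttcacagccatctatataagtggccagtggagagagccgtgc
Ldha: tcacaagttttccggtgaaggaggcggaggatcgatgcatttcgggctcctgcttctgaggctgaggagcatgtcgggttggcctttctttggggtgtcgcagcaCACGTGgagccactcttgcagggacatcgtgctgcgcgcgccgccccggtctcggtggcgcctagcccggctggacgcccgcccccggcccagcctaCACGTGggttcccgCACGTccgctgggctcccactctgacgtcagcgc
Slc16a3: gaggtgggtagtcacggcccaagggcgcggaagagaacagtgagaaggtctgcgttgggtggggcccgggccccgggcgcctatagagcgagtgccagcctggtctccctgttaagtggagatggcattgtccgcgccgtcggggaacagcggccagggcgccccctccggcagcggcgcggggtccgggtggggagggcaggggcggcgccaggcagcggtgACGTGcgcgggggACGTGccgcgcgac

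The Ldha window held 3 matches, 2 of them within CACGTG, Pgk1 and Slc16a3 held 2 each, Slc2a1 held 1 and Tpi1 none. The 5 promoters shown are not representative of the genes lower with DON. ACGTG was in 8 of the 17 genes lower with DON than in GM-CSF and in 5 of the 6 higher genes that had a window (Hk3, Pfkfb3, Aldoa, Pdk2 and Vegfa). Eno1, Pfkp, Pfkl, Hk1, Slc2a6, Pfkfb4, Pdk1 and Pdha1, all lower with DON, held no ACGTG, like Tpi1. GCGTG was not counted, so these windows may still hold that form of the core. Among the 33 listed genes with a RefSeq window, 18 had a match in at least 1 of their windows. Of 47 windows, 21 (44.7%) held ACGTG, against 16.6% of all 32851 windows. CACGTG was in 14.9% of the listed genes' windows and 6.02% of all. The listed genes' windows had a median GC content of 60.4%, against 52.4% for all windows, and windows of 1 gene can overlap. A match describes these letters only, and binding was not measured. Slc2a3 and Pdp1 had no entry in the promoter table used, and their promoters were not examined.

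The kinases of pyruvate dehydrogenase differed in direction. Pdk1, the kinase that HIF-1 is known to induce, had 21.7 and 24.7 CPM in GM-CSF with DON, 29.9 and 35.3 CPM in GM-CSF and 60.5 and 57.7 CPM without GM-CSF. It was lower with DON than in GM-CSF (-0.49 ± 0.09, edgeR adjusted p = 0.00102) and lower in GM-CSF than without (-0.86 ± 0.08, adjusted p = 1.3e-05). Pdk2, the widely expressed kinase (chr11:95026258-95041354, minus strand), had 17.2 and 16.2 CPM in GM-CSF with DON, 7.98 and 8.83 CPM in GM-CSF and 12.6 and 11.9 CPM without GM-CSF. Its 2 DON libraries were the highest and its 2 GM-CSF libraries the lowest, with 0.99 ± 0.09 for DON over GM-CSF (edgeR adjusted p = 1.07e-05) and -0.54 ± 0.09 for GM-CSF over no GM-CSF (adjusted p = 0.000639). Pdk3 was highest in GM-CSF, with 25.1 and 25.0 CPM in GM-CSF with DON, 35.3 and 33.3 CPM in GM-CSF and 23.4 and 26.3 CPM without GM-CSF (DON over GM-CSF -0.46 ± 0.07, edgeR adjusted p = 0.000362). Pdk4, the kinase induced by fasting and fatty acids in other tissues, stayed at 0.17 to 0.49 CPM and passed no test. In FPKM, Pdk3 led the family in GM-CSF with DON (41.9% ± 1.92) and in GM-CSF (49.4% ± 3.85), and Pdk1 led without GM-CSF (54.1% ± 1.70). The Pdk2 share was 26.8% ± 2.06 with DON, 11.5% ± 0.736 in GM-CSF and 14.6% ± 0.462 without GM-CSF.

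Pdp1, the phosphatase that reactivates the enzyme, had 29.7 and 30.8 CPM in GM-CSF with DON, 15.3 and 18.5 CPM in GM-CSF and 15.7 and 16.3 CPM without GM-CSF. Only the DON libraries stood out, with 0.84 ± 0.09 over GM-CSF (edgeR adjusted p = 2.87e-05) and 0.92 ± 0.09 over no GM-CSF (adjusted p = 1.48e-05). The catalytic E1 subunits were highest in GM-CSF. Pdha1, the E1 alpha subunit, had 70.4 and 69.2 CPM in GM-CSF with DON, 91.9 and 95.4 CPM in GM-CSF and 66.7 and 68.7 CPM without GM-CSF (DON over GM-CSF -0.42 ± 0.05, edgeR adjusted p = 4.38e-05). Pdhb, the E1 beta subunit, had 83.3 and 80.5 CPM in GM-CSF with DON, 99.2 and 97.2 CPM in GM-CSF and 67.2 and 67.2 CPM without GM-CSF. Unlike Pdha1, it was still above no GM-CSF with DON (0.29 ± 0.05, edgeR adjusted p = 0.000551), where Pdha1 gave 0.04 (adjusted p = 0.468; 0.14 and 0.0343 with scaling by total counts), and the difference between the 2 genes was not tested.

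The HIF group changed little in its central gene. Hif1a mRNA had 177 and 182 CPM in GM-CSF with DON, 167 and 168 CPM in GM-CSF and 181 and 183 CPM without GM-CSF. DON over GM-CSF did not pass (0.10 ± 0.04, edgeR adjusted p = 0.0594), although it did with the stricter filter (0.11, adjusted p = 0.0389) and in limma-voom (0.10, adjusted p = 0.0456). GM-CSF over no GM-CSF was -0.12 ± 0.04 (adjusted p = 0.0263), a call lost without any one of the 4 libraries compared (adjusted p 0.0665 to 0.107), in DESeq2 (0.0571), and with scaling by total counts, where the value was close to 0 (adjusted p = 0.937). HIF-1α is governed mainly through its protein, which was not measured here. Vegfa, the angiogenic growth factor and classical HIF target, was at low counts, with 29 and 51 reads in GM-CSF with DON, 16 and 13 in GM-CSF and 11 and 3 without GM-CSF. It was higher with DON than without GM-CSF (2.59 ± 0.51, edgeR adjusted p = 0.00172; 0.86 on the log2(FPKM + 1) scale). Its difference from GM-CSF (1.51 ± 0.45, edgeR adjusted p = 0.0164) was lost without GM-CSF replicate 1 (0.0889), GM-CSF replicate 2 (0.0947) or DON replicate 2 (0.14), and in limma on log2(FPKM + 1) (0.58, adjusted p = 0.105). GM-CSF over no GM-CSF did not pass for Vegfa (1.08 ± 0.59, edgeR adjusted p = 0.143), except without no GM-CSF replicate 1 (2.30, adjusted p = 0.0319). Bnip3, a mitophagy receptor and HIF target, had 8.99 and 9.64 CPM in GM-CSF with DON, 7.19 and 8.76 CPM in GM-CSF and 10.5 and 11.8 CPM without GM-CSF. It was lower in GM-CSF than without (-0.49 ± 0.12, edgeR adjusted p = 0.00505), a call lost without GM-CSF replicate 1 (-0.35, adjusted p = 0.0567), and DON over GM-CSF did not pass (0.23 ± 0.12, adjusted p = 0.128), except without GM-CSF replicate 2 (0.37, adjusted p = 0.0479).

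Per length, the pathway's genes spanned a wide range. In GM-CSF the highest FPKM were 2943 for Gapdh, 1048 for Aldoa, 591 for Eno1, 517 for Pgam1 and 489 for Ldha. The same 5 genes led with DON (2883 for Gapdh, 1177 for Aldoa, 320 for Pgam1, 311 for Eno1 and 280 for Ldha) and without GM-CSF (2019 for Gapdh, 1110 for Aldoa, 506 for Ldha, 489 for Pgam1 and 269 for Eno1). Eno1 thus ranked above Pgam1 and Ldha in GM-CSF and below both without it. Ratios of FPKM to CPM varied between libraries by 6.13% (SD) for Pfkl, 6.66% for Pdk1 and 54.4% for Slc2a3, so the authors' effective lengths were not constant, and shares that involve Slc2a3 are the least certain. Of the 35 genes, 12 have exons that overlap a gene on the other strand, among them Hk3 (Unc5a), Pfkp (Pitrm1), Tpi1 (Spsb2) and Pdha1 (Map3k15). The strand setting of the counting is not given in the sources used here, so reads of such pairs cannot be told apart. Copies named after them, mostly pseudogenes, are annotated for 7 of the genes, Aldoa, Tpi1, Gapdh, Pgk1, Pgam1, Eno1 and Ldha, which makes their counts uncertain to the extent that reads were shared.

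Other genes of the same pathways gave the setting, counted as for the listed genes. Of all genes tested, 57.6% were called for DON over GM-CSF and 56.8% for GM-CSF over no GM-CSF. Of 24 other glycolysis genes tested, 9 were higher and 8 lower with DON than in GM-CSF (70.8% called), and 3 were higher and 9 lower in GM-CSF than without (50%). With DON, the ADP-dependent glucokinase Adpgk (-0.74 ± 0.06, edgeR adjusted p = 5.66e-06) and pyruvate kinase, listed in the table as Pkm2 (-0.43 ± 0.05, adjusted p = 2.87e-05), were lower than in GM-CSF, and the intracellular transporter Slc2a8 was higher (0.81 ± 0.09). Of 11 other genes of pyruvate dehydrogenase and the pyruvate carrier, 5 were lower with DON than in GM-CSF and none higher. That is 45.5% called, below the share of all genes. In GM-CSF, 5 were higher and 2 lower than without (63.6%). The E2 and E3 subunits Dlat (-0.46 ± 0.05 with DON over GM-CSF and 0.56 ± 0.06 for GM-CSF over no GM-CSF) and Dld (-0.27 ± 0.05 and 0.28 ± 0.05) passed in both comparisons, which share the GM-CSF libraries. Pyruvate carboxylase, Pcx, had -0.36 ± 0.09 and 0.61 ± 0.09 in the same comparisons.

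The pentose phosphate pathway, which makes NADPH and ribose from glucose 6-phosphate, was lower in most of its genes with GM-CSF. Of 12 tested, 8 were lower and 3 higher in GM-CSF than without, and 6 lower and 2 higher with DON than in GM-CSF. The called shares were 91.7% and 66.7%, against 56.8% and 57.6% of all genes tested. G6pdx, its rate-limiting enzyme, was -0.55 ± 0.05 with DON over GM-CSF (edgeR adjusted p = 1.48e-05) and -0.96 ± 0.05 with DON over no GM-CSF (adjusted p = 2.25e-07). Transaldolase, Taldo1, was -0.81 ± 0.04 for GM-CSF over no GM-CSF (edgeR adjusted p = 2.23e-07). Of 17 glycogen genes, 5 were higher and 4 lower with DON than in GM-CSF (52.9% called), and 3 were higher and 7 lower in GM-CSF than without (58.8%). Both shares were near those of all genes. Glycogenin, Gyg, the primer of glycogen synthesis, was 1.38 ± 0.04 higher with DON than in GM-CSF (edgeR adjusted p = 2.31e-08).

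Among 16 regulators and partners of HIF, 4 were higher and 3 lower with DON than in GM-CSF, and 6 were higher and 4 lower in GM-CSF than without. The called shares were 43.8% and 62.5%, against 57.6% and 56.8% of all genes tested. Epas1, which encodes HIF-2α, was -1.30 ± 0.05 in GM-CSF over no GM-CSF (edgeR adjusted p = 3.15e-08) and -1.25 ± 0.05 with DON over no GM-CSF (adjusted p = 3.89e-08). Cited2, which competes with HIF-1α for p300, was -0.95 ± 0.07 in GM-CSF over no GM-CSF and 0.78 ± 0.07 with DON over GM-CSF (edgeR adjusted p = 6.74e-06). Hsp90aa1 was -0.85 ± 0.04 with DON over GM-CSF (edgeR adjusted p = 1.75e-07), while Hsp90ab1 (0.23 ± 0.04) and Arnt2 (1.06 ± 0.18) were higher. Of 36 other HIF targets, 17 were higher and 9 lower with DON than in GM-CSF (72.2% called), and 12 were higher and 8 lower in GM-CSF than without (55.6%). The chemokine receptor Cxcr4 (0.99 ± 0.05), the MYC antagonist Mxi1 (0.86 ± 0.05) and the transcription factor Nfil3 (1.37 ± 0.08) were higher with DON than in GM-CSF. Anxa2 was lower (-0.69 ± 0.05, edgeR adjusted p = 1.44e-06). Set against cells without GM-CSF, the DON group had 3 higher and 10 lower of the other glycolysis genes, 4 and 2 of the pyruvate dehydrogenase and carrier genes, 1 and 8 of the pentose phosphate genes, 5 and 7 of the glycogen genes, 5 and 4 of the HIF regulators and 14 and 9 of the HIF targets. In that order, 54.2%, 54.5%, 75%, 70.6%, 56.2% and 63.9% were called, against 55.6% of all genes tested. The transferrin receptor Tfrc was -1.89 ± 0.09 in that comparison (edgeR adjusted p = 9.07e-08).

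**Figure D4:**
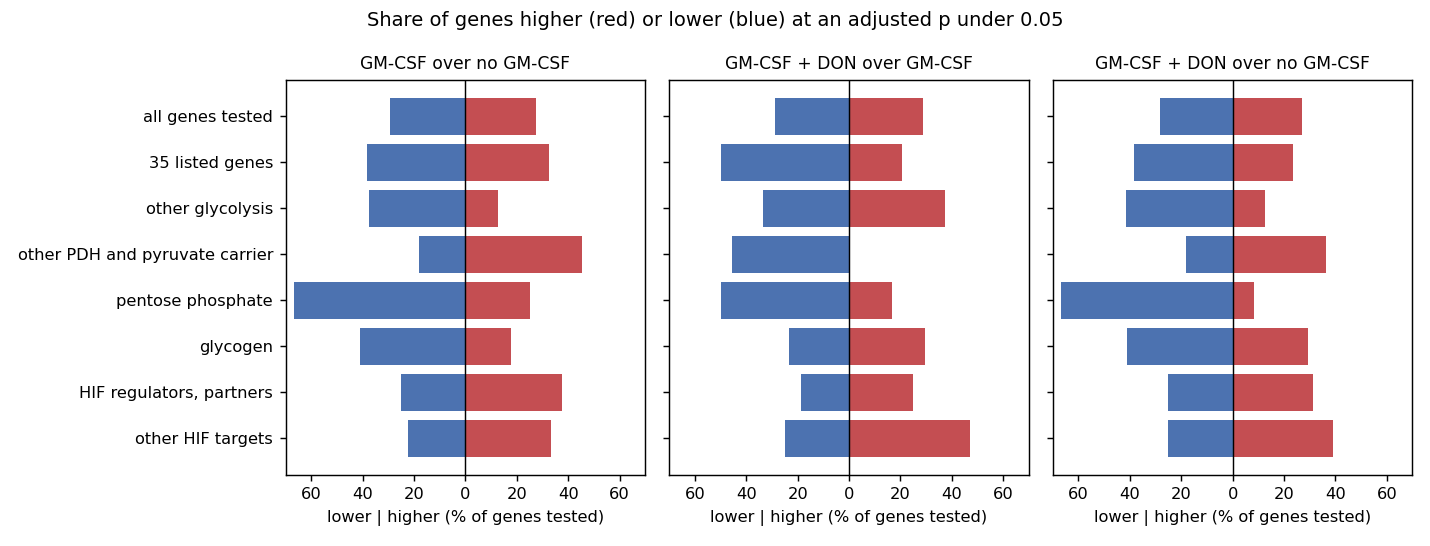
Share of tested genes called higher (red, right of 0) or lower (blue, left of 0) in each list, as a percent of the genes tested, for GM-CSF over no GM-CSF, GM-CSF with DON over GM-CSF, and GM-CSF with DON over no GM-CSF, with all 12340 genes in the top row. The pentose phosphate list has 8 of 12 genes lower in the left and right panels, and the pyruvate dehydrogenase and carrier list has no gene higher in the middle panel.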

How the data were processed

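Libraries were made from total RNA and sequenced on an Illumina HiSeq instrument, per the labels' protocols. The submitters' processing notes name STAR 2.6.0a, featureCounts of Subread 1.4.6, DESeq2 1.28.1 and mm10. The authors' deposited table holds raw read counts per gene symbol for 6 libraries, and a second deposited table holds FPKM. How FPKM lengths were set is not given in the sources used here.

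The counts were tested with edgeR 4.0.16 in R 4.3.3: TMM scaling, genes kept by filterByExpr with a minimum count of 10 (12340 of 16840), 1 coefficient per group over all 6 libraries (3 residual degrees of freedom), quasi-likelihood F test and Benjamini-Hochberg adjustment over all tested genes. A standard error is the size of the log2 fold change divided by the square root of F. CPM values use TMM-scaled totals, and shares of counts use the raw totals. The typical biological coefficient of variation was 0.0501. Isoform shares were computed from FPKM as a percent of the sum over the listed genes of the family. The fit was tested on simulated data. Positions come from GENCODE M21 and promoters from RefSeq. Alternatives were RLE and total-count scaling, other filters, a replicate block, 4-library fits, leaving out each library, DESeq2 1.42.0, and limma 3.58.1 on voom values and on log2(FPKM + 1) and log2(FPKM + 0.1).

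The 35 genes and the related lists were chosen with earlier results of these data known. All 35 genes are accounted for; of each related list, genes named are among the up to 4 called per comparison with the smallest adjusted p and a mean of at least 1 CPM.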

Additional observations from a re-analysis of the deposited data

How the results depend on the processing

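Over 1617 refits of the tested genes' 3 values, 1525 kept direction and side of the threshold, 40 lost the call, 20 gained one and 32 changed sign. The listed genes' counts of calls stayed within 1.5 times of those reported. For GM-CSF over no GM-CSF, settings that kept each compared library gave 11 to 14 higher and 10 to 13 lower. They gave 6 to 8 and 16 to 17 for DON over GM-CSF, and 7 to 12 and 12 to 14 for DON over no GM-CSF. Of all genes, these settings called 40.7% to 62.8%, 41.5% to 64.2% and 40.1% to 61.1% in the same comparisons. The lowest shares came without a filter and the highest with the stricter filter. With total-count scaling, 49 related genes were higher in GM-CSF than without, more than 1.5 times the 32 with TMM. That scaling moved the median of all genes to 0.10, and 4587 of all 12340 genes were then called higher, against 3393 with TMM.

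No value that changed sign was called with the settings reported. For GM-CSF over no GM-CSF, total-count scaling gave 0.105 for Slc2a3, 0.016 for Aldoa and 0.062 for Ldha, and Slc2a3 was 0.004 in the 4-library fit and 0.172 and 0.384 on FPKM with 1 and 0.1 added. For DON over GM-CSF, Slc16a1 was -0.016 with total-count scaling, -0.006 with RLE scaling and in DESeq2, and -0.004 on FPKM with either added value, and Gapdh was 0 with the stricter filter. For DON over no GM-CSF, Hif1a was 0.074 with total-count scaling and Gpi1 -0.004 on FPKM with either added value. The cause was not tested.

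Leaving out each library, GM-CSF over no GM-CSF ranged from -0.183 to 0.171 for Slc2a3, -0.128 to 0.013 for Ldha and -0.068 to 0.212 for Pdp1. DON over GM-CSF ranged from -0.276 to 0.681 for Pfkm, -0.073 to 0.057 for Gapdh, -0.166 to 0.06 for Eno2 and -0.075 to 0.087 for Slc16a1. DON over no GM-CSF ranged from -0.033 to 0.036 for Gpi1, -0.028 to 0.106 for Pfkfb3, -0.006 to 0.117 for Aldoa, -0.053 to 0.135 for Ldhb, -0.073 to 0.096 for Pdk3 and -0.013 to 0.667 for Pdk4. Where a group keeps 1 library, that library is assumed to vary like the others.

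Replicate numbers did not pair the libraries: differences between replicates correlated by 0.06 (DON and GM-CSF), -0.293 (DON and no GM-CSF) and -0.047 (GM-CSF and no GM-CSF). With the replicate block, all-gene calls were 6708, 6882 and 6542, against 7014, 7111 and 6859 without, for GM-CSF over no GM-CSF, DON over GM-CSF and DON over no GM-CSF, and among the listed genes only Pfkm lost a call. The listed genes then counted 11 higher and 12 lower, 7 and 17, and 8 and 13. Crossing the numbers for DON and no GM-CSF, chosen after seeing the data, gave 7225 calls, against 6584 without a block on those 4 libraries. Depth limits Slc2a3, Pfkm, Eno2, Ldhb, Pdk4 and Vegfa, and 2 libraries a group limit all values.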
